A study of Mus musculus with 7 samples.

Results

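The p24 cargo receptors are encoded by the Tmed genes, and 10 of them, Tmed1 to Tmed10, were examined here in mouse liver. They were found through the array's annotation: a probe set, a group of short probes read out as 1 value, was taken when its only gene symbol was one of these 10. That gave 21 probe sets for 9 genes, among 45037 probe sets in all, which name 18193 genes singly. Tmed1 had no such probe set. Tmed2 had 1 and a further 6 shared with another symbol, and Tmed10 had 1 and a further 4 that were shared, and the shared ones were not used. The livers came from 4 mice with a knockout of miR-122, namely KO-03, KO-90, KO-91 plus KO-94. The other 3 mice, WT-27, WT-103 and WT-104, were wild type. All 7 were 2 months old and of B6/129 background, and each gave 1 Affymetrix array. Where values follow one another, they stand in this order of animals. miR-122 is the dominant microRNA of hepatocytes, and the question was what its loss does to transcript levels in liver. The labels do not describe how the allele was made or the sex of the mice, and miR-122 itself is not reported by any probe set used here, which leaves the genotypes as labelled.

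The p24 proteins are small membrane proteins of the early secretory pathway, the route by which newly made proteins leave the endoplasmic reticulum (ER) and reach the Golgi. Each has a GOLD domain in the lumen, a coiled-coil stretch and a short tail in the cytosol that binds the COPII coat, which carries cargo out of the ER, and the COPI coat, which carries it back. They work as mixed complexes drawn from subfamilies named alpha, beta, gamma and delta, and are best known for carrying proteins held to the membrane by a glycosylphosphatidylinositol (GPI) anchor. Hepatocytes export most plasma proteins, so this route is heavily used in liver.

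The window around the start of Tmed3 is printed because Tmed3 is the member whose value differed between genotypes. It runs from 250 bases before to 50 bases after the start, at chr9:89704994-89705293 on the minus strand of GRCm38.p6, in the RefSeq promoter table. Capitals mark CCACG, or CGTGG where the match lies on the opposite strand. CCACG is one part of the ER stress response element, bound by ATF6, and CCAAT, bound by NF-Y, is the other part.
Tmed3: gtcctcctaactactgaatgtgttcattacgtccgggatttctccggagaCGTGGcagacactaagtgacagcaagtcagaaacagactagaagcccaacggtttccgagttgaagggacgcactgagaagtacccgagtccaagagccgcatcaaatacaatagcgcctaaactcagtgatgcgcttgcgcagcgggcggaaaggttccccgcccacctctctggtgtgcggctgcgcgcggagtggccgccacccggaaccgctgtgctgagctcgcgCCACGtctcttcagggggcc
The first match begins 200 bases before the start on the opposite strand and the second at base 31 after it, and CCAAT was not found in these letters on either strand. Among all 32851 windows of this length, 32.8% held CCACG and 37.4% held CCAAT on at least 1 strand. Of the 8 members with a window in that table, 7 held CCACG and 5 held CCAAT. The parts were counted singly, and their spacing and order were not examined, so these are not counts of the whole element. These matches are a description of the letters and no measurement of binding.

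Tmed3 transcript was about 3.6-fold higher in miR-122 knockout liver, and no other member passed the test. The count was 1 of 21 member probe sets higher and 0 lower, beside 1.29% of all probe sets called higher and 0.32% called lower (limma, adjusted p under 0.05 over all probe sets). At an unadjusted p under 0.05 there were 2 member probe sets, the other being one of Tmed9, beside 13.3% of all probe sets at that level. The median difference of the 21 was -0.012 on the log2 scale, and that of all probe sets was -0.0047. A liver array averages many cell types, so more cells of a type and more RNA per cell cannot be told apart.

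Tmed3 belongs to the gamma subfamily. Its probe set 1416108_a_at read 10.18, 10.07, 9.77 and 10.46 in the knockout livers, and 8.57, 8.18 and 8.10 in the wild-type livers, as log2 values. Every knockout liver lay above every wild-type liver, and the gap between the nearest pair, KO-91 and WT-27, was wider than the spread within either genotype. Tmed3 averaged 10.12 ± 0.29 in knockout (SD, n = 4) and 8.28 ± 0.25 in wild type (SD, n = 3). The difference was 1.84 ± 0.18 (SE) on the log2 scale, a 3.57-fold rise with a 95% interval of 2.68 to 4.75-fold (limma adjusted p = 0.00263). By unadjusted p it ranked 66 among the 45037 probe sets. Its adjusted p stayed between 0.0015 and 0.0237 over 18 other settings, among them the loss of any single array.

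The second Tmed3 probe set, 1441846_x_at, read 3.62, 3.55, 3.92 and 4.02 in the knockout livers and 3.40, 3.61 and 3.65 in wild type. All 7 values lay under the floor for levels, which was the highest of 27 bacterial control probe sets on each array and ran from 4.86 to 5.23 in knockout and 4.71 to 5.10 in wild type. Its difference was 0.23 (limma adjusted p = 0.566). The Tmed3 result therefore rests on 1 probe set.

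**Figure D1:**
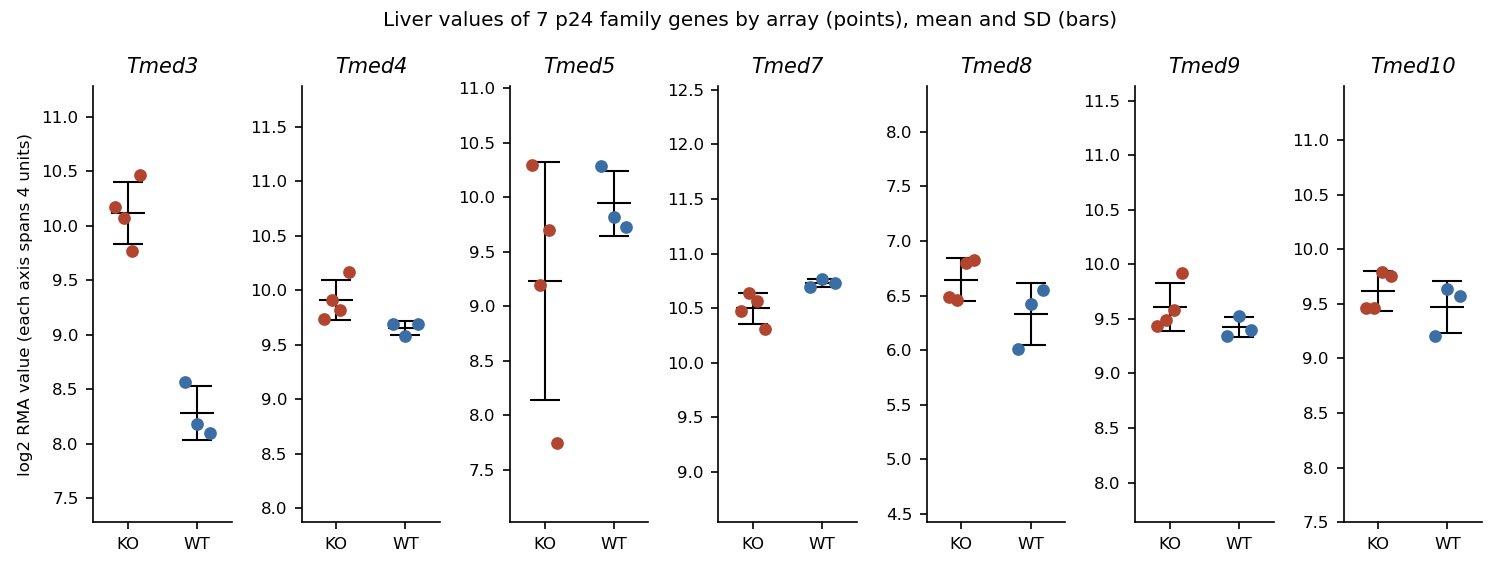
Log2 values of the highest-mean probe set of the 7 members that lay above the floor on all arrays, with KO livers left (4) and WT livers right (3). Points are single livers, bars are mean and SD, and each vertical axis spans the same 4 log2 units. Tmed3 shows a clear gap between genotypes, and Tmed5 shows the widest scatter, with KO-94 at 7.74.

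Tmed5 and Tmed7 are the other gamma members with readable signal. Tmed5, which in human cells takes part in the export of Wnt proteins, was the most variable member between livers. Its probe set 1424574_at read 10.29, 9.20, 9.70 and 7.74 in the knockout livers, and 10.28, 9.82 and 9.72 in the wild-type livers. KO-03 lay at the top of the wild-type range and KO-94 far under it, so the genotypes overlapped. It averaged 9.23 ± 1.09 in knockout (SD, n = 4) and 9.94 ± 0.30 in wild type (SD, n = 3), a difference of -0.71 with a 95% interval of -1.86 to 0.44 (limma adjusted p = 0.610). Of all probe sets, 99.3% had a smaller residual SD than this one. Without KO-94 the difference was -0.21, and without KO-03 it was -1.06.

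The order of the knockout livers recurred in 3 further Tmed5 probe sets. Probe set 1431789_s_at read 8.97, 7.78, 8.24 and 7.27 in the knockout livers and 8.91, 8.26 and 8.14 in the wild-type livers. Probe set 1424573_at read 9.15, 6.91, 7.68 and 6.00 in knockout and 8.88, 8.05 and 7.50 in wild type. In each, KO-03 was highest, KO-91 next, then KO-90, and KO-94 lowest. A dimmer one, 1458962_at, followed the same order with 5.69, 4.68, 4.92 and 3.84 in knockout and had 6.32, 6.50 and 4.71 in wild type, with 3 arrays at the floor or lower. Its difference was -1.06 and did not pass (limma adjusted p = 0.414). Without KO-03 and WT-104 together it was -1.93 and passed (limma adjusted p = 0.0188). In this probe set KO-03 was the highest knockout liver and WT-104 the lowest wild-type liver. Leaving out that pair therefore widens the difference by construction, and the call is no support for a fall. The 3 brighter probe sets did not pass in any setting run. The last Tmed5 probe set, 1445343_at, lay under the floor on all arrays.

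RNA quality was looked at beside this scatter through the 3' and 5' control probe sets of 2 housekeeping genes. The 3' minus 5' value of Gapdh was -0.14, -0.20, -0.10 and -0.12 on the log2 scale in the knockout livers, and -0.11, -0.04 and -0.06 in the wild-type livers. For beta-actin it was 0.64, 0.57, 0.78 and 0.75 in the knockout livers and 0.70, 0.83 and 0.75 in wild type. KO-94, lowest for Tmed5, stood at neither end of the 7 arrays for these controls. The part of RNA quality in the Tmed5 scatter was not tested.

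Of all genes, the 5 whose pattern over the 7 arrays was nearest to Tmed5's 1424574_at shared the low value in KO-94. This list was made after the Tmed5 values were seen, and the choice by likeness makes a shared low value in KO-94 likely. Likeness was the root mean square difference of log2 values after each probe set's own mean was subtracted, over 16328 genes. The exchange factor Fgd4 came first at 0.11, with 6.48, 5.47, 5.96 and 4.21 in the knockout livers and 6.38, 6.17 and 6.09 in wild type. It was followed by the peroxisomal acyl-CoA binding protein Acbd5 at 0.15, Fam126b at 0.17, the vesicle SNARE Vamp7 at 0.19 and the cohesin subunit Stag2 at 0.19. Acbd5 read 11.43, 10.42, 10.90 and 9.34 in the knockout livers and 11.45, 11.14 and 10.92 in wild type. None of the 5 passed the test between genotypes (limma adjusted p of 0.533 to 0.721), as the choice by likeness to Tmed5 also makes likely.

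**Figure D2:**
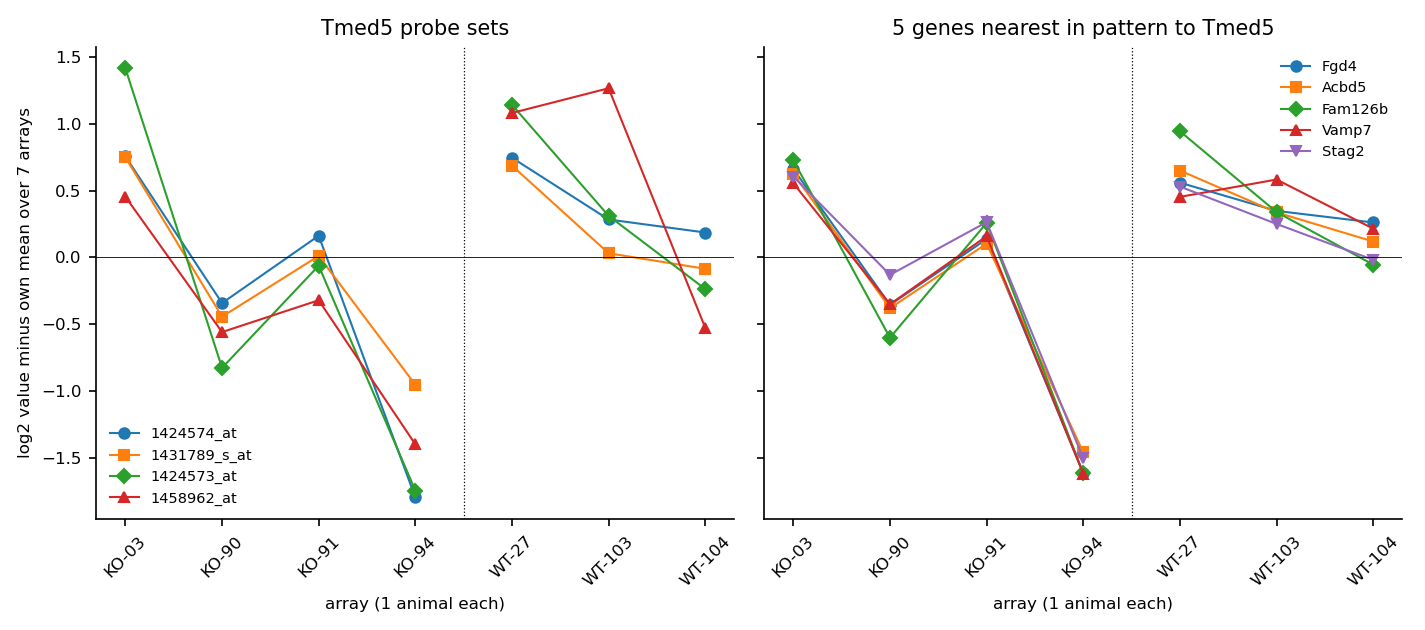
Log2 value minus the probe set's own mean over the 7 arrays, for the 4 Tmed5 probe sets above the floor on at least 1 array (left) and for the 5 genes nearest in pattern to Tmed5's 1424574_at (right), with KO livers left of the dotted line and WT livers right of it. Lines only join values of 1 probe set. KO-94 is the lowest liver in each of the 4 Tmed5 profiles and in each of the 5 genes.

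Tmed7, a gamma member that in human cells takes part in the transport of the endotoxin receptor TLR4, had 4 probe sets that were above the floor in every liver, and all 4 had differences below 0 without passing. The brightest, 1427314_at, read 10.48, 10.64, 10.57 and 10.31 in the knockout livers and 10.70, 10.76 and 10.73 in the wild-type livers. The groups did not overlap, as was the case in 12.8% of all probe sets, and the difference was -0.23 with a 95% interval of -0.49 to 0.02 (limma adjusted p = 0.421). Differences of the other 3 were -0.42 for 1419917_s_at, -0.07 for 1429187_at and -0.39 for 1419918_at (limma adjusted p of 0.535 to 0.864). In 1419917_s_at the knockout livers read 10.51, 9.52, 9.98 and 9.33 and the wild-type livers 10.38, 10.39 and 10.01, with KO-03 highest and KO-94 lowest as in Tmed5. In 1429187_at the values ran from 8.98 (KO-94) to 9.29 (KO-90) in knockout and from 9.07 (WT-103) to 9.30 (WT-27) in wild type, with little scatter between livers. The probe sets of Tmed7 thus disagree on the scatter between livers. The fifth, 1427315_at, lay under the floor on all arrays.

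Tmed1 and Tmed6 are the remaining gamma members. Tmed1 had no probe set of its own, and Tmed6 gave no readable signal. The single Tmed6 probe set read 3.10, 3.19, 3.01 and 3.14 in the knockout livers and 2.59, 2.86 and 3.64 in wild type, all under the floor.

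In the alpha subfamily, Tmed4 and Tmed9 had small differences above 0 that did not pass. Tmed4's 1448422_at read 9.74, 9.91, 9.82 and 10.17 in the knockout livers and 9.69, 9.58 and 9.69 in the wild-type livers. The knockout livers lay above the wild-type livers by a narrow margin, and the difference was 0.26 with a 95% interval of -0.03 to 0.54 (limma adjusted p = 0.428). Its second probe set lay under the floor on all arrays. The 2 probe sets of Tmed9 disagreed in size. In 1448268_at the knockout livers read 7.92, 9.25, 8.19 and 8.78 and the wild-type livers 7.76, 7.64 and 8.01, so KO-03 fell within the wild-type range. That difference was 0.73 with a 95% interval of 0.07 to 1.39 (unadjusted p = 0.0330 and adjusted p = 0.318 in limma). In 1439448_x_at the values were 9.44, 9.49, 9.58 and 9.92 in knockout and 9.35, 9.52 and 9.40 in wild type, a difference of 0.19 (limma adjusted p = 0.626).

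The beta and delta subfamilies have 1 member each, Tmed2 and Tmed10, which pair with the other subfamilies in p24 complexes. Tmed10's 1424707_at read 9.47, 9.46, 9.79 and 9.75 in the knockout livers and 9.20, 9.64 and 9.57 in the wild-type livers. The groups overlapped, and the difference was 0.15 with a 95% interval of -0.19 to 0.48 (limma adjusted p = 0.733). The only Tmed2 probe set that names it alone, 1460128_at, read 3.21, 3.15, 3.14 and 3.19 in knockout and 3.24, 3.21 and 3.10 in wild type, under the floor on all arrays. Tmed2 was therefore not measured well here.

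Tmed8 carries a GOLD domain and the family name but is not placed in the subfamilies above. Its 1428854_at read 6.48, 6.46, 6.80 and 6.83 in the knockout livers and 6.01, 6.42 and 6.55 in the wild-type livers. The difference was 0.31 with a 95% interval of -0.06 to 0.69 (limma adjusted p = 0.466). Its second probe set lay under the floor on all arrays.

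**Figure D3:**
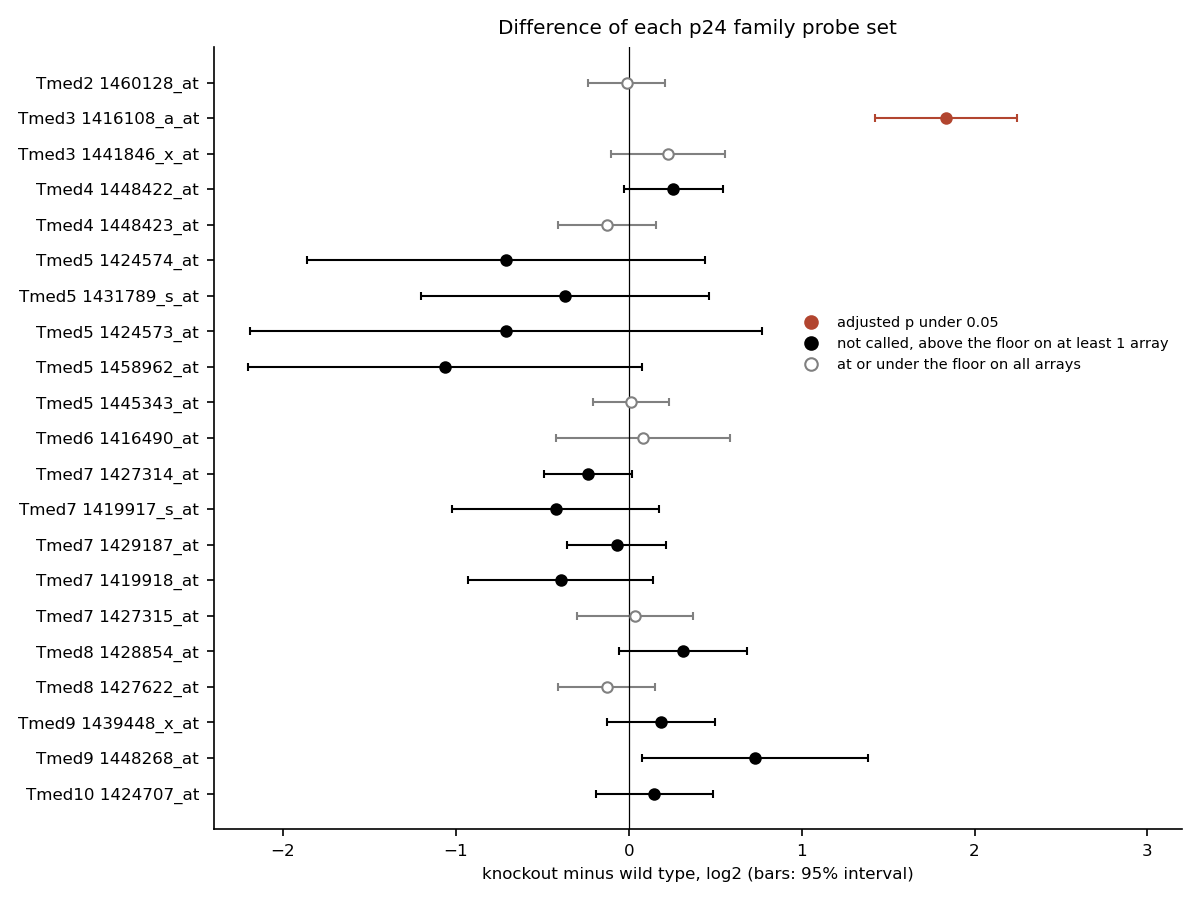
Knockout minus wild-type difference of each of the 21 member probe sets on the log2 scale, with 95% intervals from limma. Red marks an adjusted p under 0.05, and open grey points lie at the floor or lower on each of the 7 arrays. Tmed3's 1416108_a_at stands alone at 1.84, and the widest intervals are those of Tmed5.

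Of the 21 member probe sets, 13 lay above the floor on all arrays, 1 on some and 7 on none. The 13 cover 7 genes, with 6 differences above 0 and 7 below. Leaving Tmed3 aside, the differences of these ran from -0.71 to 0.73. In 3 of the 13, those of Tmed3, Tmed4 and Tmed7, the genotypes did not overlap. That is 3 of all 21 member probe sets, near the 12.8% of all probe sets.

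Tmed3 was then set against each other member within the same liver. The log2 value of Tmed3 minus that of the other gene was compared between genotypes for 8 pairs, each gene by its highest-mean probe set. The shift of Tmed3 relative to the other member ran from 1.52 against Tmed8 to 2.54 against Tmed5. Against Tmed7 it was 2.07, against Tmed10 1.69, against Tmed9 1.65 and against Tmed4 1.58. In all 8 pairs every knockout liver lay above every wild-type liver. The exact two-sided permutation p over the 35 splits of the arrays was 0.0286 in each pair, the smallest that 35 splits allow, and 0.0286 after adjustment over the 8 pairs. All 8 pairs use the same Tmed3 values, and Tmed3 was set against the others with its own difference already known. The 8 equal p-values are therefore not separate support and add little to the Tmed3 result. The probe sets of Tmed2 and Tmed6 also lay under the floor, so those 2 pairs set Tmed3 against values that are not readable.

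The machinery around the p24 proteins showed no called change when each gene was counted by its highest-mean probe set. In 5 lists of early secretory pathway genes, 0 of 80 measured genes were higher and 0 were lower, beside 1.87% and 0.511% of all genes called higher and lower by their highest-mean probe set (limma, adjusted p under 0.05). Of all 80, 46 had a difference above 0, the median was 0.017 against 0.013 for all genes, and differences ran from -0.96 to 0.48, so the Tmed3 difference lay above each of them. At an unadjusted p under 0.05, the lists held 7 genes: 1 of 16 for the COPII coat and ER exit, 1 of 17 for the COPI coat and Arf, 3 of 20 for other cargo receptors, 1 of 18 for SNAREs and tethers, and 1 of 9 for GPI anchor remodelling. Of all genes, 16.3% were at that level, so the lists held no larger share than genes at large.

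Among COPII genes the smallest p was that of Sar1a, the GTPase that starts coat assembly. Sar1a read 9.22, 9.54, 9.39 and 9.62 in the knockout livers and 9.05, 8.86 and 9.09 in wild type. The difference was 0.44 ± 0.13 (SE) and did not pass (limma adjusted p = 0.163), and its second probe set was at 0.51. For the COPI list it was Gbf1, the exchange factor of Arf1, at -0.25 ± 0.10 (SE) with limma adjusted p = 0.350. Of the SNAREs and tethers it was the SNARE Ykt6, at 0.37 ± 0.11 (SE) with limma adjusted p = 0.153. Pgap3, an enzyme that remodels the lipid of GPI anchors, had the smallest p of its list at 0.41, but lay under the floor on all arrays.

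The lowest of the 80 differences was that of Ergic2, a membrane protein that cycles between ER and Golgi. Ergic2 read 7.52, 7.03, 7.42 and 6.36 in the knockout livers and 8.15, 8.06 and 7.93 in the wild-type livers. The knockout livers all lay lower, with KO-94 lowest, and the difference was -0.96 ± 0.26 (SE, limma adjusted p = 0.126). Its 2 other probe sets were at -0.61 and -0.47 and did not pass. Lman1, the lectin that carries clotting factors out of the ER, was at -0.30 by its highest-mean probe set (limma adjusted p = 0.238). Its dim probe set 1444037_at passed with a difference of -2.48 (limma adjusted p = 0.0342), and the 3 remaining ones did not pass. In 1444037_at all 4 knockout livers and 1 of 3 wild-type livers lay under the floor, and the call was lost at limma adjusted p of 0.0803 to 0.159 without any single array other than KO-03 or WT-104. With the mean of all 5 probe sets, Lman1 was at -0.70 (limma adjusted p = 0.0204). That mean includes the dim probe set, and the other 4 were at -0.43 to -0.13. With 1 value per gene, it was the 1 call among the 80 genes in any setting, and further probe sets of these genes were not counted. Lman1 is named here after its values were seen.

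GPI-anchored proteins, the best known cargo of p24 complexes, included several called genes. Of 23 measured, 4 were higher, 1 was lower and 18 did not pass, with a list median of 0.13, beside 1.87% of all genes called higher and 0.511% called lower. Of the 4 higher, Cd24a is also on the cholangiocyte marker list and Cd14 on the macrophage list, and the part of those cells in these calls was not tested. Alkaline phosphatase Alpl read 7.94, 8.60, 8.29 and 8.51 in the knockout livers and 5.98, 6.04 and 6.38 in wild type. Its groups lay well apart, and it rose by 2.20 ± 0.18 (SE, limma adjusted p = 0.00129). Cd24a, a surface glycoprotein, rose by 2.84 ± 0.32 (SE, limma adjusted p = 0.00439), with 1 of 3 wild-type arrays under the floor. Ly6e rose by 0.98 ± 0.18 (SE, limma adjusted p = 0.0365), a call lost at adjusted p of 0.0728 to 0.143 without any single array other than KO-03. A dimmer Ly6e probe set, 1439773_at, was at 0.76 and did not pass (limma adjusted p = 0.111). Cd14, a coreceptor for endotoxin, which had 7.99, 8.19, 7.75 and 9.70 in the knockout livers and 6.36, 5.79 and 6.56 in wild type, was the fourth (limma adjusted p = 0.0471). Its call was lost at limma adjusted p of 0.0754 to 0.208 without KO-90, KO-91 or any 1 wild-type array, at 0.0562 after a further quantile normalization and at 0.0678 with a robust prior. Cd14 is named here after its values were seen. Bst2, an antiviral membrane protein, read 8.50, 8.50, 8.29 and 8.55 in knockout and 9.46, 9.82 and 9.59 in wild type. It fell by 1.17 ± 0.12 (SE) on the log2 scale (limma adjusted p = 0.00357). These values are transcript levels and hold no measure of protein transport.

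**Figure D4:**
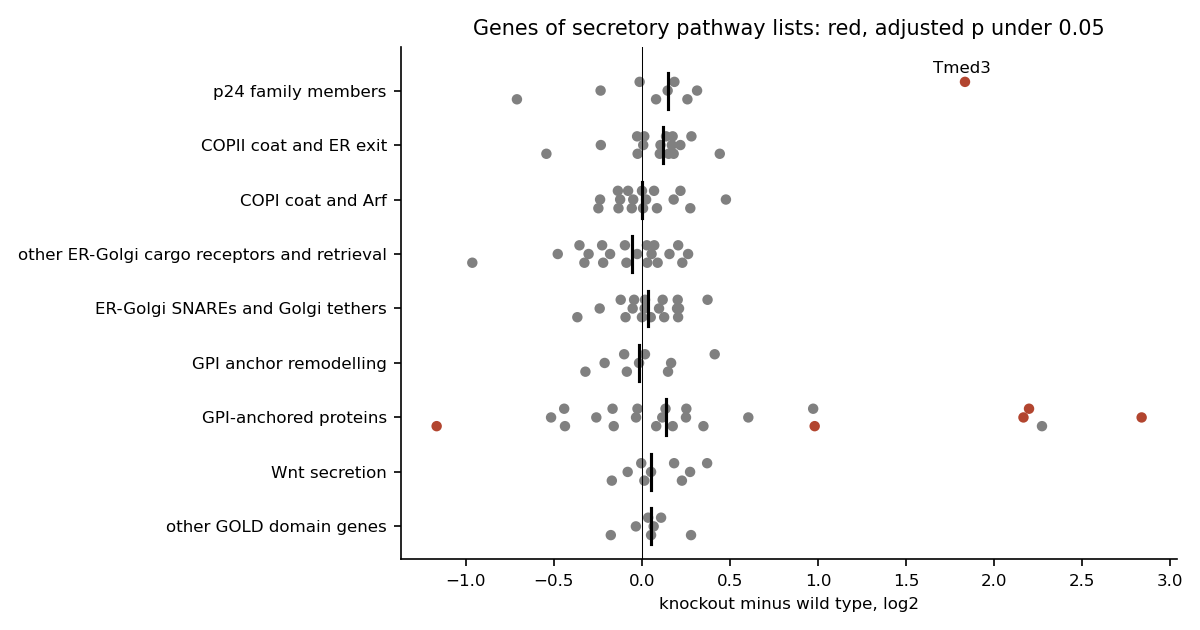
Knockout minus wild-type differences, on the log2 scale, of single genes by their highest-mean probe set, for the p24 members and 8 lists around them. Vertical bars are medians, and red marks an adjusted p under 0.05. Tmed3 and 5 GPI-anchored proteins are the red points.

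The 9 genes of Wnt secretion, another cargo of p24 proteins, had 0 calls by their highest-mean probe sets and 0 at an unadjusted p under 0.05 (limma). Among all genes, 1.87% were called higher, 0.511% were called lower and 16.3% had an unadjusted p under 0.05 (limma). With these shares, 0 calls in a list as short as this or the next one says little. The smallest p was that of Wls, the carrier of Wnt proteins, at 0.37 ± 0.18 (SE, limma adjusted p = 0.438). A dimmer Wls probe set, 1423824_at, which lay under the floor in all 3 wild-type livers, read 5.12, 5.33, 5.33 and 5.63 in knockout and 4.53, 4.24 and 4.58 in wild type and did pass (limma adjusted p = 0.0228). That call was lost at limma adjusted p of 0.0545 to 0.115 without KO-90, KO-91 or any 1 wild-type array. Of 7 other genes with a GOLD domain or its name, among them Tmed11, 0 passed and 1 had an unadjusted p under 0.05 (limma), Sec14l1 at 0.28.

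Some genes moved across the 7 livers much as Tmed3 did. By the same root mean square measure over 16328 genes, the nearest were Tmem50b, an ER and Golgi membrane protein, at 0.17, the glycolytic enzyme Aldoa at 0.17, the clathrin adaptor protein Necap2 at 0.19, the ceramide synthase Cers6 at 0.21 and the actin-binding tropomyosin Tpm4 at 0.21. Tmem50b read 8.51, 8.44, 8.45 and 8.76 in the knockout livers and 6.90, 6.93 and 6.67 in wild type. Necap2 read 7.90, 8.20, 7.90 and 8.42 in the knockout livers and 6.63, 6.48 and 6.41 in wild type. All 5 passed the test, with rises of 1.54 (Cers6) to 2.00 (Aldoa) on the log2 scale (limma adjusted p of 0.000678 to 0.00834), as the choice by likeness to Tmed3 makes likely. Cers6 lost its call without WT-103 (limma adjusted p = 0.0558).

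**Figure D5:**
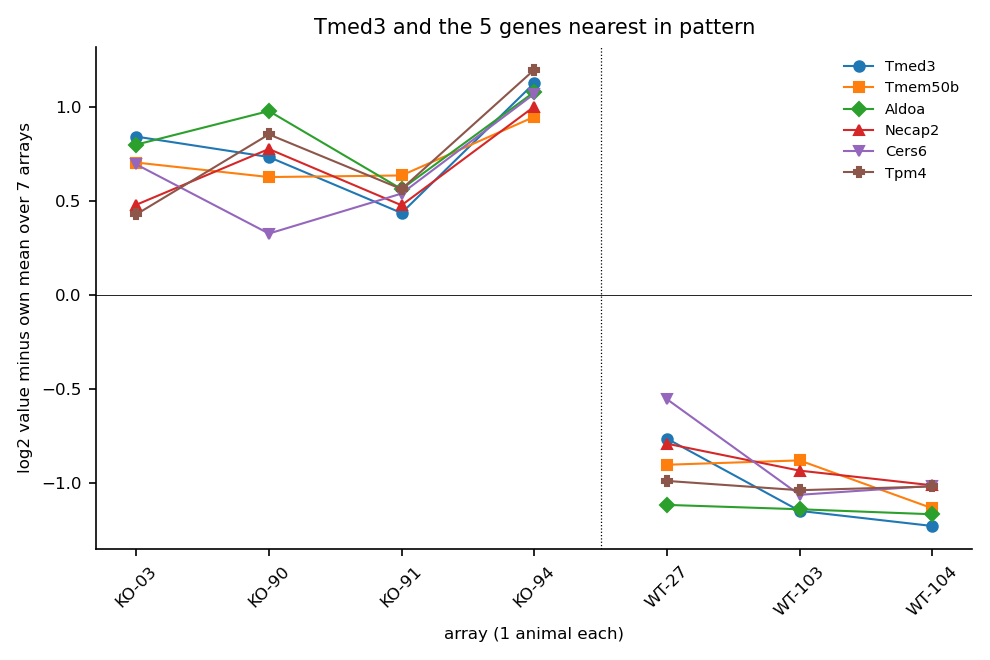
Log2 value minus the probe set's own mean over the 7 arrays for Tmed3 and the 5 genes nearest to it in pattern, with KO livers left of the dotted line and WT livers right of it. Lines only join values of 1 gene. All 6 genes lie above their mean in the 4 KO livers and below it in the 3 WT livers.

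Some markers of other liver cells were called higher in knockout, and on each list others were not called. Of all genes, 1.87% were called higher and 0.511% lower by their highest-mean probe set (limma, adjusted p under 0.05). The mean log2 value of 10 stellate cell markers ran from 7.87 to 8.37 in knockout and 7.31 to 7.41 in wild type, with 4 called higher. For 7 cholangiocyte markers it was 5.47 to 6.44 in knockout and 4.53 to 4.79 in wild type, with 4 called higher and 1 under the floor on all arrays. Among the called ones, Krt19 and Epcam lay at the floor or lower in 2 wild-type livers each, Tspan8 in all 3 and Cd24a in 1. For 6 neutrophil markers the mean log2 value was 5.34 to 6.28 in knockout and 4.25 to 4.79 in wild type, with 2 called higher and 4 under the floor. For 9 macrophage markers it was 9.128 to 9.69 in knockout and 8.52 to 9.132 in wild type, so the genotypes overlapped, with only Cd14 called. Of 8 endothelial and 7 lymphocyte markers 0 were called (2 and 1 at an unadjusted p under 0.05 in limma, beside 16.3% of all genes at that level). The 9 hepatocyte markers averaged 13.26 to 13.38 in knockout and 13.08 to 13.19 in wild type, with 0 called. Of these 9, 6 had a difference above 0, and the median difference was only 0.036. Tat, at 0.90, was the 1 hepatocyte marker with an unadjusted p under 0.05 in limma. The part of these cell types in the Tmed3 difference was not tested.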

How the data were processed

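Frozen livers of 4 miR-122 knockout and 3 wild-type mice were profiled, 1 array each. The deposited table holds log2 values per probe set, which the authors computed by RMA with Partek, per the labels and the series' design text. RMA's quantile step makes arrays alike in distribution, so a shift common to most transcripts would not be seen. No counts lie behind the values, and the number of arrays limits precision. No source used here gives software versions.

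After 64 control probe sets were left out, all 45037 probe sets were fitted with limma 3.58.1 under R 4.3.3, using lmFit and eBayes with genotype alone and two-sided tests. The p-values were adjusted over all of them by Benjamini-Hochberg, and calls were made under 0.05. Each difference is knockout minus wild type. A listed gene is counted by the brightest of its single-symbol probe sets (highest mean, all arrays). The fit was tested on simulated data. The limma p-values set each difference against the spread between animals within genotypes. In eBayes the spread of each probe set is drawn toward that of all probe sets. Member names and lists were chosen with earlier results of these data known. Named were every member probe set, in each list the called genes (at most 4, smallest p) or else the smallest p, and the 5 genes nearest to Tmed3 in pattern, without predicted symbols. Cd14, Lman1 and a second Wls probe set were named beyond that rule, after their values were seen. The floor, the Tmed5 likeness list and the motifs were chosen after data were seen, and it is not known here whether those bacterial RNAs were spiked in. Alternatives were other priors, array weights, other normalizations, filters on dim probe sets, 1 value per gene, leaving out probe sets ending in _x_at or _s_at, a threshold of 0.01 and leaving out arrays.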

Additional observations from a re-analysis of the deposited data

Results flagged for a closer look

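In 2 of the 44 sets of 4 knockout values tested for a lone value, 1 liver stood apart, about the number chance gives at 1 in 20. For Tmed3 minus Tmed8, the knockout liver KO-91 was lowest, and its gap to the next was 0.878 of the whole knockout range (2.97 against 3.60 to 3.69 in the other knockout livers, with wild type at 1.55 to 2.55). For Tmed3 minus Tmed10, KO-91 was again lowest, with a gap of 0.861 of the range (-0.02 against 0.61 to 0.71 in the others, with wild type at -1.47 to -0.64). In both pairs KO-91 still lay above every wild-type liver.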

How the results depend on the processing

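Tmed3 was called higher under all 18 alternatives that gave it a value, at differences of 1.03 (mean of its 2 probe sets) to 1.98, and from 1.72 to 1.98 when single arrays were left out. Of the other members, 1 Tmed5 probe set was called, so the count of members lower was 1 when KO-03 and WT-104 were both left out. That call is no support for a fall, because these were the highest knockout and the lowest wild-type liver of that probe set. The count of early secretory genes lower was 1 (Lman1) with the mean of all probe sets. Relative to each other member, the shift of Tmed3 kept its sign throughout. With the mean of all probe sets it was 1.60 against Tmed5 and 0.57 against Tmed9, neither of which passed (exact permutation test, adjusted p = 0.0571). Without single arrays it ran from 1.55 to 1.96 (Tmed10), 1.74 to 1.96 (Tmed2), 1.47 to 1.70 (Tmed4), 1.93 to 2.88 (Tmed5), 1.36 to 2.11 (Tmed6), 1.89 to 2.23 (Tmed7), 1.32 to 1.82 (Tmed8) and 1.55 to 1.83 (Tmed9), at exact permutation adjusted p of 0.0762 to 0.133; 6 arrays allow no p below 0.0667 without a wild-type array or 0.1 without a knockout array, so none could pass. Over all probe sets, calls higher and lower (582 and 144) were 1177 and 407 with array weights, 1231 and 709 without KO-03 and WT-104, 163 and 21 at an adjusted p under 0.01, and 172 to 1112 and 38 to 268 without single arrays, and lower calls were 242 among probe sets with a mean of at least 6 in 1 genotype; the cause was not tested. No paired analysis was possible because the animals' numbers do not recur between genotypes. At values under the floor, changes are not readable: the results for Tmed2 and Tmed6 are limited by this.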
